A study of Mus musculus with 8 samples.

Results

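The interleukins and their receptors were examined as 72 genes of the 18172 measured on Affymetrix Mouse Genome 430 2.0 arrays. Their symbols begin with Il and a digit, a probe set was counted only where this was its sole gene symbol, and each gene was read from its brightest probe set over all arrays. The 72 genes were covered by 114 probe sets and comprised 31 ligands, 35 receptor chains, 4 receptor antagonists or binding proteins (Il1rn, Il1f5, Il18bp and Il22ra2) and 2 others, the amino acid oxidase gene Il4i1 and the antisense transcript Il1bos. Il2rg, Il1rl1, Il17f and Il22 were not analysed here.

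The study asked which genes differ with age in the proximal airway. Old mice were 14 months and young mice 2 months of age, and all 8 were C57Bl/6 females for which the labels give no transgene and no treatment. Total RNA came from the distal trachea together with the carina, the fork where the main bronchi begin, and each array held the RNA of 1 mouse. The old mice are numbered 1, 2, 5 and 6 and the young mice 3, 4, 7 and 8, and values below follow that order.

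Interleukins are secreted proteins through which leukocytes, epithelium and stroma signal to one another. Most bind a receptor built of a private chain and a chain shared with other cytokines: ligands of the IL-1 family act through MyD88 and NF-kappaB, most others through JAK kinases and STAT factors, and the IL-17 family through the adaptor Act1. In airways, epithelium is a source of IL-33 and the IL-7-like cytokine TSLP, whereas IL-4, IL-13 and IL-17A come mainly from lymphocytes.

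Signals are in arbitrary units, every array shared a trimmed mean of 500.002, and no number of reads lies behind a value, so the number of arrays limits the precision. Correlations of log2 signal over all probe sets were 0.951 to 0.958 between arrays of the same age and 0.947 to 0.952 between ages, and no array stood apart. Airway epithelial markers were plentiful in every mouse, with a summed signal of 14 markers of 120026 to 142083 in the old and 126796 to 140840.0 in the young mice. Only 24 of the 72 genes, 8 ligands and 16 receptors, were brighter than the median probe set of the array. The median standard error of a log2 difference was 0.107 for the 8 brighter ligands and 0.278 for the 23 dimmer ones, and 0.134 for the 16 brighter receptors and 0.319 for the 19 dimmer ones. Levels of different probe sets were not compared with each other as amounts of RNA. Signals were summed over marker lists only to compare mice, and a gene called bright or dim is so by signal alone. The mice are separate animals, and the tests below compare the ages by limma with Benjamini-Hochberg adjustment over all 18172 genes.

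Of the 72 genes, Il7r alone passed an adjusted p of 0.05, in the direction of higher signal in old tracheas, and none was lower at that threshold. The same threshold called 62 genes of the array higher, or 0.341%, and 32 lower, or 0.176%. Before adjustment 13 members were higher at a p under 0.05 and 0 lower, or 18.1% of the members against 7.23% of all genes higher and 7.29% lower. In 9 members every old mouse exceeded every young mouse, or 12.5% against 4.95% of all genes, and in 0 members every old mouse lay below every young mouse, which was so for 5.11% of all genes. The median log2 difference, old minus young, was 0.21 over the members and -0.0049 over all genes, and 52 members, or 72.2%, had a positive difference against 49% of all genes. By the thresholds the methods name, a fold above 2 with an unadjusted p under 0.05, 3 members were higher (Il7r, Il21 and Il23a) and 0 lower, against 1.03% and 0.589% of all genes.

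Ligands and receptors were also counted apart. Among the 31 ligands none passed the adjusted threshold, 8 were higher before adjustment, 5 did not overlap between the ages (Il7, Il1b, Il33, Il4 and Il21), and the median difference was 0.21. Among the 35 receptors 1 passed, 5 were higher before adjustment, 4 did not overlap (Il7r, Il18r1, Il10ra and Il18rap), and the median difference was 0.27. The 4 antagonists and binding proteins overlapped between the ages, with differences from -0.092 for Il18bp to 0.30 for Il1rn. The plot of all ligands and receptors shows most points to the right of 0 and the widest error bars among the dim genes.

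**Figure D1:**
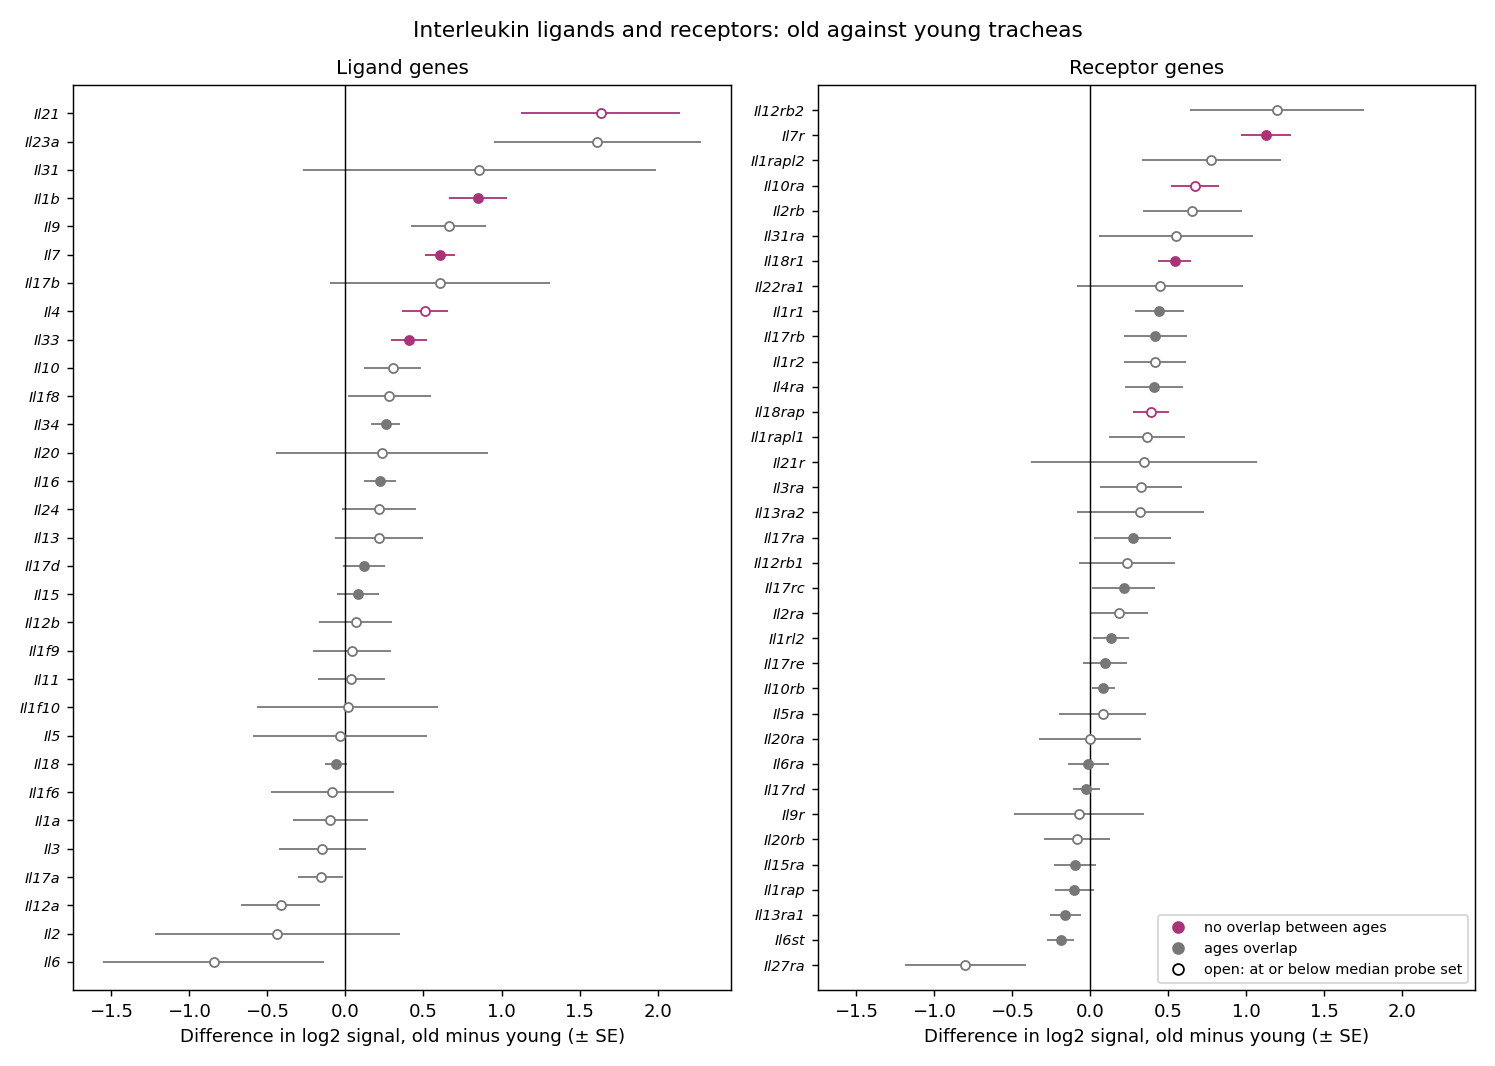
Difference in mean log2 signal between 4 old and 4 young tracheas for each of 31 ligand genes (left) and 35 receptor genes (right). Bars are standard errors from limma, magenta marks genes whose ages did not overlap, filled circles mark genes brighter than the median probe set and open circles the others. Most differences are positive, and Il7r combines a difference of 1.13 with a short bar.

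Il7r encodes the IL-7 receptor alpha chain, which lymphocytes need for survival and development and which also serves in the receptor for TSLP. Its signals were 464, 674, 689 and 644 in the old mice and 238, 258, 299 and 331 in the young mice. The lowest old mouse, mouse 1, still lay above the highest young mouse, mouse 8. Il7r rose from 282 ± 41.6 to 617 ± 104 (SD, n = 4 each), a log2 difference of 1.13 (SE 0.16) with a 95% interval of 0.75 to 1.50 and an adjusted p of 0.0408. The gene's second probe set also separated the ages, at 219 ± 54.5 against 114 ± 17.2, a difference of 0.92. The adjusted p was 0.0368 without old mouse 1 and ranged from 0.0754 to 0.119 when any other mouse was left out, so the call was lost without any single one of those 7 mice, while the difference stayed between 1.05 and 1.26.

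The ligand Il7, a stromal and epithelial growth factor for lymphocytes, had the next smallest p among all 72 genes. Its signals were 375, 396, 435 and 492 in the old and 284, 278, 264 and 284 in the young mice. The young mice lay close together and all below the lowest old mouse. The log2 difference was 0.61 (SE 0.10), with an adjusted p of 0.0537 that missed the threshold, and a second probe set overlapped between the ages with a difference of 0.25. TSLP, the other ligand that uses the Il7r chain, gave a difference of -0.026 (SE 0.23), and its private receptor chain Crlf2 gave 0.15 (SE 0.13).

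The 300 bases around the start of Il7r (RefSeq, GRCm38.p6, chr15:9529827-9530126, minus strand) are shown because Il7r was the member that passed, with those of Il18r1 (the last of 3 listed starts, chr1:40465756-40466055, plus strand) and Il4 (1 of 2 listed starts, chr11:53617289-53617588, minus strand), the other members without overlap of the ages that held the same motif. Each runs from 250 bases before to 50 after the start, and capitals mark the STAT-type motif TTCNNNGAA, which reads the same on both strands.
Il7r: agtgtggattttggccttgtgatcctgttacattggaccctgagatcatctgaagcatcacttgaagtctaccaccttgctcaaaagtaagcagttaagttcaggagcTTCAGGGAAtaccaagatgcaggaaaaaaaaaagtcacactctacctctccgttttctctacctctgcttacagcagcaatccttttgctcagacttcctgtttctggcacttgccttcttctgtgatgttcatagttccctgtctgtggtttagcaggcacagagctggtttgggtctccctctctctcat
Il18r1: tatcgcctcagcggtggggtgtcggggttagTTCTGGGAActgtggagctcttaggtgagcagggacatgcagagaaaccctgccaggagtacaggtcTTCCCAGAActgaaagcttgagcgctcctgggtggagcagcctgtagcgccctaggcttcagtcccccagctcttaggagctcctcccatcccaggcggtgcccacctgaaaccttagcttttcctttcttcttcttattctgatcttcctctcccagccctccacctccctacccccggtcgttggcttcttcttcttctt
Il4: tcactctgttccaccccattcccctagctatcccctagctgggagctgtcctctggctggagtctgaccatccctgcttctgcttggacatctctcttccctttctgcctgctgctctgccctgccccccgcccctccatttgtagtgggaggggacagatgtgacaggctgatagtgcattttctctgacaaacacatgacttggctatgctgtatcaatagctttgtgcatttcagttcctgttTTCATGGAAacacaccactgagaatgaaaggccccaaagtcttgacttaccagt
The motif began 142 bases before the start of Il7r, 219 and 152 before that of Il18r1 and 4 before that of Il4. The starts of Il18r1 and Il4 that are not shown lacked the motif, as did those listed for Il18rap, Il1b, Il33 and Il21. No start was listed for Il7 or Il10ra, the remaining members without overlap. Promoters were listed for 57 of the 72 members, 70 promoters in all, and 10 of these, or 14.3%, held the motif against 8.3% of 32851 promoters of the same length. The AP-1 motif TGANTCA, searched on both strands and not found in the 3 promoters shown, occurred in 20% of member promoters and 7.81% of all. The NF-kappaB consensus occurred in 8.57% and 4.51%. These matches are descriptions of sequence and no binding was measured.

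T cell markers were set beside Il7r because T cells carry its product. Of 18 markers 16 were measured, and all 16 had a positive difference, with a median of 0.53. Before adjustment 7, or 43.8%, were higher, against 7.23% of all genes, and none passed the adjusted threshold. In 3 of the 16 (Cd3d, Cd3g and Lat) every old mouse exceeded every young mouse, which was so for 4.95% of all genes. The 16 markers summed to 4492 to 4827 in the old and 3553 to 4148 in the young mice, which did not overlap. Thy1, at 1484 in the old and 1284 in the young mice, and Zap70, at 1232 and 1110, weighed most in this sum. Both overlapped between the ages. No marker was at 0, although the defining marker Cd4 was dim. Cd3d, a chain of the T cell receptor complex, had signals of 222, 222, 223 and 376 in the old and 118, 115, 175 and 155 in the young mice. The ages did not overlap, and the difference was 0.87 (SE 0.22). Cd3e gave 0.51 (SE 0.17) and Thy1 0.22 (SE 0.18), both with overlap of the ages. Of 11 measured B cell markers all were positive, with a median of 0.73 and a summed signal of 1332 to 2394 in the old and 928 to 995 in the young mice. Thymus markers, another lymphoid source of Il7r, had a median of 0.032 over 10 and summed to 1035 to 1899 in the old and 1063 to 1378 in the young mice, with the recombinase gene Rag1 at 46.2, 2.19, 17.5 and 429 in the old and 2.80 or less in the young mice. The part of T cells, B cells or thymus in the Il7r result was not tested. In whole tissue, more cells of a type and more RNA per cell cannot be told apart.

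**Figure D2:**
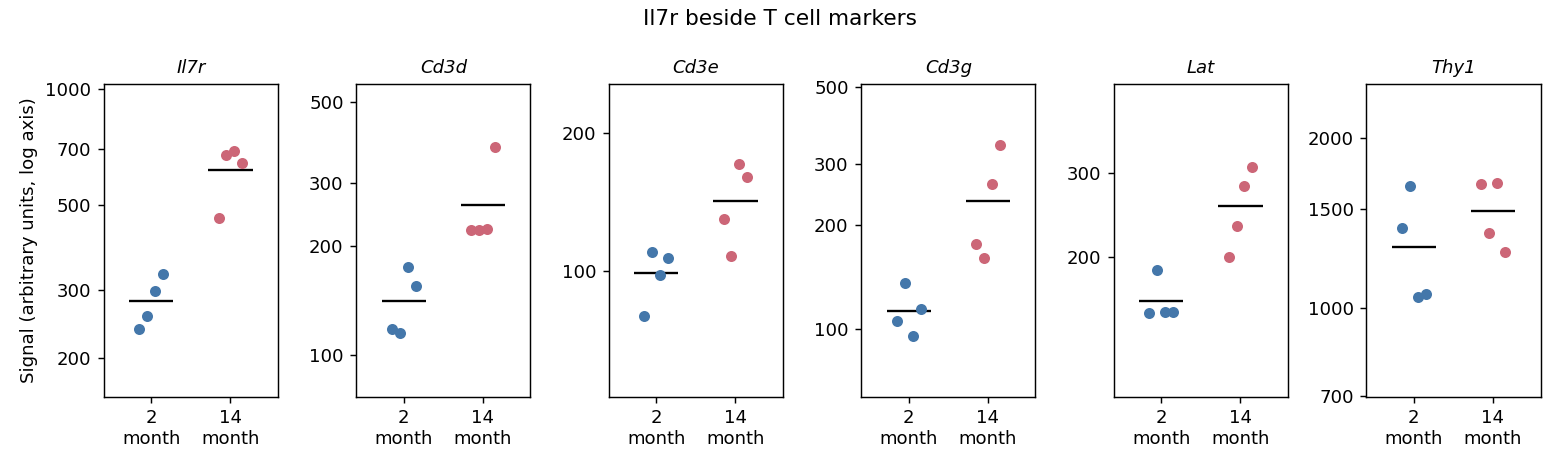
Signal in each mouse on a log axis for Il7r and 5 T cell markers, with 4 young (blue) and 4 old (red) mice and a bar at each mean. Il7r, Cd3d, Cd3g and Lat do not overlap between the ages, whereas Cd3e and Thy1 do. Cd3d, Cd3g and Lat are the only 3 of the 16 measured T cell markers without overlap.

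The receptor for IL-18, a cytokine that drives interferon-gamma production, has a binding chain, Il18r1, and an accessory chain, Il18rap. Il18r1 was bright, with signals of 4018, 3936, 3927 and 3893 in the old and 3229, 2839, 2328 and 2519 in the young mice. The old mice were nearly level and the young mice spread below them. The log2 difference was 0.54 (SE 0.11), with an adjusted p of 0.0846.

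Il18rap had signals of 186, 153, 192 and 149 in the old and 145, 122, 133 and 117 in the young mice. Old mice 2 and 6 lay only just above young mouse 3. The difference was 0.39 (SE 0.12), with an adjusted p of 0.188, and 0.61 at a second probe set whose ages overlapped. The ligand Il18 had signals of 528, 529.7, 509 and 572 in the old and 532, 542, 604 and 555 in the young mice. Old mice 1, 2 and 5 lay below every young mouse and old mouse 6 among them, and the difference of -0.061 (SE 0.072) had a 95% interval of -0.23 to 0.11. NK and innate lymphoid cells also use this receptor. Their 11 measured markers summed to 2428 to 2910.4 in the old and 2441 to 2697 in the young mice, with a median difference of 0.073. Klrd1 at 0.58 (SE 0.12) and Klrk1 at 0.50 (SE 0.11) were higher before adjustment, without overlap of the ages. Gzmb at -1.02 (SE 0.36) and Rora at -0.20 (SE 0.080) were lower before adjustment, with overlap. Rora was the brightest of the 11, at 1078 in the old and 1239 in the young mice.

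Il18r1 and Il18rap are neighbours on chromosome 1 of Il1r2, Il1r1 and Il1rl2, the decoy and signalling receptors of IL-1 and the IL-36 receptor chain. These 5 members lie within a run of 6 protein-coding genes in the RefSeq annotation. All 5 differences were positive, at 0.42 for Il1r2, 0.44 for Il1r1, 0.13 for Il1rl2, 0.54 for Il18r1 and 0.39 for Il18rap. Il1r2 was singled out for its position after its values were seen. The 6 neighbouring members from Il1f8 to Il1rn on chromosome 2 ranged from -0.083 to 0.30, all with overlap of the ages.

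Il1b, the inflammatory IL-1 ligand made mainly by myeloid cells, had signals of 225, 338, 325 and 330.4 in the old and 127, 172, 176 and 203 in the young mice. Old mouse 1 was well below the other old mice but above every young mouse. The difference was 0.85 (SE 0.18), with an adjusted p of 0.106. Its chromosomal neighbour Il1a, the other IL-1 agonist, was dim, at 45.3 ± 16.1 in the old and 46.5 ± 5.03 in the young mice, and its difference of -0.10 (SE 0.24) was within the spread between mice. The natural antagonist Il1rn, named here after its values were seen as the counterpart of Il1b, gave 0.30 (SE 0.41) at its brightest probe set and -0.12 there without young mouse 7. Of its other probe sets, one was higher in every old than in any young mouse, at 90.3 ± 13.6 against 70.9 ± 8.24 and a difference of 0.35, and the other gave -0.22 with overlap of the ages.

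The signalling receptor Il1r1 had signals of 558, 529, 386 and 520.1 in the old and 392, 352, 294 and 425 in the young mice. Old mouse 5 lay below young mice 3 and 8, and the other old mice lay above all the young. The difference was 0.44 (SE 0.16), with an adjusted p of 0.260. Averaging both probe sets of the gene gave 0.98, with an adjusted p of 0.412. The other probe set was dim, with means of 13.6 in the old and 7.35 in the young mice. Its difference was 1.52 (SE 0.90), with overlap of the ages. The accessory chain Il1rap, shared by receptors for IL-1, IL-33 and IL-36, gave -0.10 (SE 0.13) with a 95% interval of -0.39 to 0.19. Among 12 macrophage and monocyte markers 11 had a positive difference, with a median of 0.21. In 5 of them every old mouse exceeded every young mouse, which was so for 4.95% of all genes. The 12 markers summed to 33117 to 39502 in the old and 32048 to 34863 in the young mice, and none was at 0. Their part in the Il1b result was not tested.

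Il33, an alarm cytokine stored in the nuclei of barrier cells, had signals of 1591, 1505, 1700.2 and 1733 in the old and 1091, 1093, 1447 and 1326 in the young mice. The ages were close, with old mouse 2 just above young mouse 7. The difference was 0.41 (SE 0.11), with an adjusted p of 0.171. The airway epithelial marker list had a median difference of -0.034, and 6 of its 14 markers were positive. Of these, 4 were higher before adjustment and without overlap of the ages, the basal cell keratins Krt5 at 0.31 (SE 0.094) and Krt14 at 2.21 (SE 0.52), the epithelial keratin Krt8 at 0.33 (SE 0.10) and the chloride channel Cftr at 0.90 (SE 0.19). Krt14 was dim, at 124 ± 71.7 in the old and 26.7 ± 15.6 in the young mice. The other basal cell markers of the list, Trp63 at -0.048 (SE 0.090) and Ngfr at 0.057 (SE 0.21), overlapped between the ages. The part of epithelial cells in the Il33 result was not tested.

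**Figure D3:**
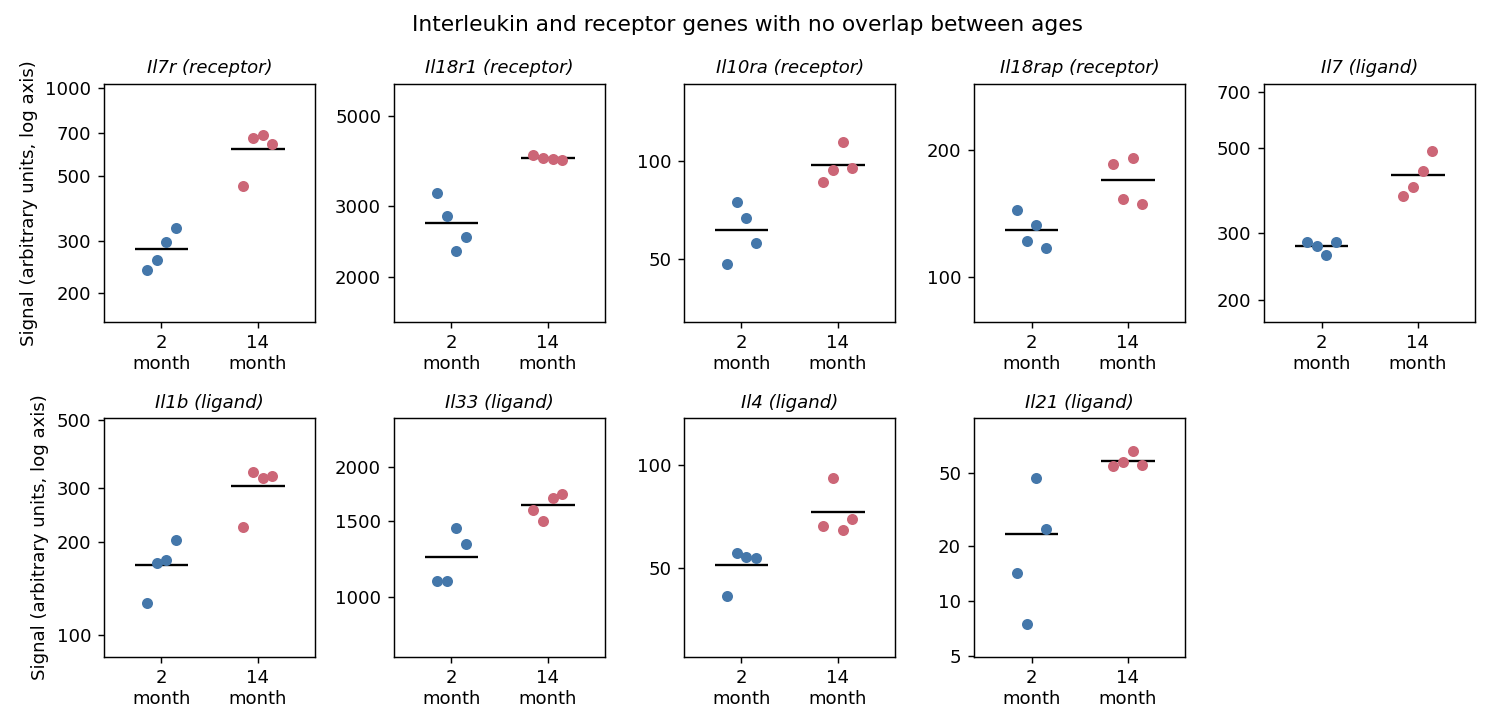
Signal in each mouse on a log axis for the 9 members in which every old mouse (red, n = 4) exceeded every young mouse (blue, n = 4), with a bar at each mean. The difference is largest relative to its standard error for Il7r, Il7 and Il18r1, and Il10ra, Il18rap, Il4 and Il21 lie on average below the median probe set.

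Ligands that signal through the common gamma chain numbered 6. Before adjustment 4 of them were higher, Il7, Il4, Il21 and Il9, against 7.23% of all genes. Of these 4 only Il7 lay above the median probe set. Il4, the cytokine that steers type 2 immunity and the switch to IgE, had signals of 66.4, 91.4, 64.4 and 69.4 in the old and 41.2, 55.2, 54.0 and 53.6 in the young mice. All these signals were dim, and young mouse 3 was the lowest. The difference was 0.51 (SE 0.15), with an adjusted p of 0.174, and it shrank to 0.17 when signals below 64 were raised to that value.

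Il21, a product of follicular helper T cells that promotes plasma cell formation, was also dim, with signals of 54.5, 57.7, 66.3 and 55.0 in the old and 14.3, 7.44, 46.9 and 24.8 in the young mice. The old mice were level and the young mice scattered below them. The difference of 1.63 (SE 0.51) had an adjusted p of 0.208, was -0.18 at the gene's other probe set, and shrank to 0.013 when signals below 64 were raised to that value. Il9 was at 14.8 ± 4.72 in the old and 9.21 ± 2.25 in the young mice, with old mice 5 and 6 below young mouse 3 and a difference of 0.66 (SE 0.24). Il15, which maintains NK cells and memory T cells, lay above the median probe set, and its difference of 0.083 (SE 0.13) had a 95% interval of -0.23 to 0.39.

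Among the 7 receptor genes of the common gamma family only Il7r was higher before adjustment. Il4ra, the chain shared by the IL-4 and IL-13 receptors, had signals of 284, 226, 402 and 274 in the old and 242, 247, 184 and 205 in the young mice. Old mouse 5 stood highest, and old mouse 2 lay within the range of the young mice. The difference of 0.41 (SE 0.19) had an adjusted p of 0.367 and turned to -0.20 when all 3 probe sets of the gene were averaged. The other probe sets were dim and overlapped between the ages, at -1.22 (SE 0.92) and 0.22 (SE 0.23). The partner chain Il13ra1 gave -0.16 (SE 0.10), and each of its 5 probe sets had a negative difference with overlap of the ages. Il13, the ligand of that pair and a driver of airway mucus, was dim at 17.1 ± 5.98 in the old and 14.3 ± 3.10 in the young mice, a difference of 0.21 (SE 0.28).

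Il10ra, the binding chain for the anti-inflammatory cytokine IL-10, had signals of 85.9, 93.7, 114 and 94.9 in the old and 48.4, 74.6, 66.7 and 56.2 in the young mice. The ages did not overlap, although the signals were below the median probe set. The difference was 0.67 (SE 0.15), with an adjusted p of 0.117. The gene's other probe sets overlapped between the ages, with differences of 1.39 (SE 1.18) and 0.23 (SE 0.25). The widely used partner chain Il10rb was bright and gave 0.084 (SE 0.073), with a 95% interval of -0.087 to 0.25. The ligand Il10 was dim, with 108 ± 12.2 in the old and 88.8 ± 20.3 in the young mice and a difference of 0.30 (SE 0.18). Dendritic cell markers, from cells that carry Il10ra as most leukocytes do, summed to 2065 to 2423 in the old and 1447 to 1709.8 in the young mice, 8 of 9 were positive and none was at 0, and their part in the Il10ra result was not tested.

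The IL-17 family showed no member past a p of 0.05 before adjustment, among 3 ligands and 5 receptors. Il17a, the ligand that induces neutrophil chemokines and antimicrobial proteins in epithelium, had signals of 98.8, 102, 102 and 111 in the old and 90.8, 126, 107 and 145 in the young mice. The old mice lay inside the wider range of the young, and the difference was -0.16 (SE 0.14) with a 95% interval of -0.50 to 0.18. The receptor chains Il17ra and Il17rc gave 0.27 (SE 0.25) and 0.21 (SE 0.20). Il17re and Il17rd gave 0.10 (SE 0.14) and -0.022 (SE 0.085). The ligand Il17d gave 0.12 (SE 0.13) at its brightest probe set. Its other probe set was dim and gave 0.57 (SE 0.54) with overlap of the ages. Named after their values were seen, the IL-25 receptor chain Il17rb had the largest receptor difference of the family at 0.42 (SE 0.20), and the dim ligand Il17b gave 0.60 (SE 0.70) but -0.11 without old mouse 5. Il23a, the private subunit of IL-23 that sustains IL-17-producing cells, had signals of 24.1, 52.7, 40.8 and 53.4 in the old and 19.3, 12.3, 3.69 and 35.9 in the young mice. Old mouse 1 lay below young mouse 8, and all signals were dim. The difference of 1.61 (SE 0.66) had an adjusted p of 0.321, and was 0.996 without young mouse 7 and 0.41 when signals below 32 were raised to that value.

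No gene of the IL-6 system was past a p of 0.05 before adjustment. Il6, an acute phase cytokine, was dim in every mouse, with signals of 28.1, 14.1, 18.5 and 2.35 in the old and 18.4, 19.2, 23.6 and 21.5 in the young mice. The old mice spread on both sides of the young and old mouse 6 was lowest, and the difference was -0.84 (SE 0.71), or -0.082 without that mouse. The binding chain Il6ra gave -0.0096 (SE 0.13), with a 95% interval of -0.32 to 0.30. Il6st, the gp130 chain shared by the IL-6 family, had signals of 2744, 2536, 2629.5 and 2502 in the old and 3271, 3156, 2691 and 2769 in the young mice. Old mouse 1 lay above young mouse 7 and the other old mice below all the young. The difference was -0.19 (SE 0.086) with an adjusted p of 0.375, and a second bright probe set gave 0.084. Ligands and receptor chains of 7 systems are set side by side in the plot of single mice around the young mean.

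**Figure D4:**
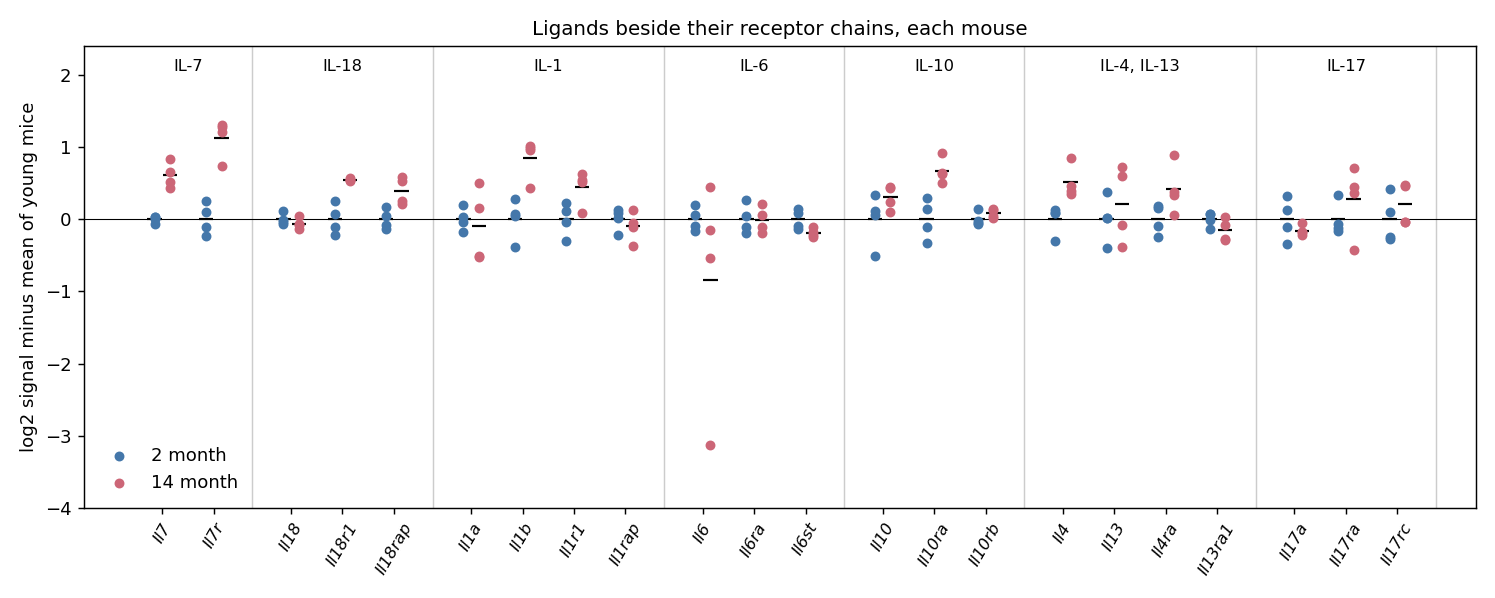
Log2 signal of each mouse minus the mean of the 4 young mice, for the ligands and receptor chains of 7 interleukin systems, with young mice in blue, old mice in red and a bar at each mean. Both genes of the IL-7 system lie above 0 in the old mice, both IL-18 receptor chains do so while Il18 does not, and the 3 IL-6 system genes scatter around or below 0.

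Of the ligands outside these families, Il34, which shares the CSF-1 receptor with the macrophage growth factor CSF-1, had signals of 199, 198, 191 and 219 in the old and 153, 175, 156 and 193 in the young mice. Old mouse 5 lay just below young mouse 8, and the remaining old mice were highest. The difference was 0.26 (SE 0.095), with an adjusted p of 0.276. Il16, a lymphocyte chemoattractant, gave 0.22 (SE 0.10), or 0.063 over the mean of its 4 probe sets. The IL-36 receptor chain Il1rl2 was bright and gave 0.13 (SE 0.11) with overlap of the ages, and 0.45 (SE 0.70) at its other, dim probe set. The dim receptor gene Il27ra, named here as the lowest receptor after its values were seen, gave -0.80 (SE 0.39) with overlap of the ages, and -0.11 when signals below 64 were raised to that value.

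Genes that act with or downstream of interleukins were counted in lists, to be read against the 7.23% of all genes higher and 7.29% lower before adjustment. Of 26 measured JAK, STAT and SOCS genes none passed the adjusted threshold and 2, or 7.69%, were higher before it, a share near that of all genes: the kinase Jak1 at 0.23 (SE 0.059) and the feedback inhibitor Socs3 at 0.77 (SE 0.20), both without overlap. Of 25 genes of IL-1 receptor and NF-kappaB signaling none passed and 5, or 20%, were higher before adjustment, among them Casp1, the protease that matures IL-1beta and IL-18, at 0.43 (SE 0.088) and the NF-kappaB subunit Rel at 0.83 (SE 0.17). Median differences of these lists were 0.075 and 0.083.

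Of 19 measured genes listed for IL-17 signaling and response 1 passed the adjusted threshold, Trgv4, at 1.32 (SE 0.18) and an adjusted p of 0.0361. Trgv4 is a T cell receptor variable segment used by IL-17-producing gamma delta T cells, and not itself a signaling or response gene. It was read from an _x_at probe set, a type that can cross-hybridise. No other gene of the list passed. Before adjustment 8, or 42.1%, were higher and 2, or 10.5%, lower, and the list's median was 0.29. The chemokine Ccl20 had signals of 442, 794, 599 and 639 in the old and 122, 196, 44.4 and 243 in the young mice, which did not overlap, with a difference of 2.26 (SE 0.51) and an adjusted p of 0.116. The calprotectin subunit S100a9 gave 1.98 (SE 0.33) and the adaptor Traf3ip2, which encodes Act1, gave -0.20 (SE 0.076), each without overlap. Several genes of this list were singled out by the study on these same arrays, so its count is not independent evidence of a direction.

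Of 20 genes known to respond to IL-4 and IL-13 none passed, 4, or 20%, were higher and 1, or 5%, lower before adjustment. The eosinophil chemokine Ccl11 gave 0.40 (SE 0.12) and the goblet cell factor Foxa3 -0.60 (SE 0.18), so members of the list lay in both directions around a median of 0.25. Some listed genes were far higher in single old mice than in the other old mice. Clca1 had signals of 595, 718, 509 and 13783.5 in the old and 4243, 1777, 4221 and 1071 in the young mice. Old mice 1, 2 and 5 lay below every young mouse, and the difference was -0.88 (SE 1.10). Chil4 had signals of 66.8, 55.2, 113 and 3646 in the old and 141, 60.3, 188 and 64.1 in the young mice. Its difference was 0.97 (SE 1.31), with overlap of the ages. Chil3 was highest in old mouse 1, at 2320, followed by old mouse 6 at 1147. Old mice 2 and 5 were at 97.4 and 37.3, and the young mice at 37.2 to 194. Of 25 other cytokine receptor and ligand genes none passed, 4, or 16%, were higher and 2, or 8%, lower before adjustment, with the neutrophil growth factor receptor Csf3r at 1.95 (SE 0.59), the oncostatin M receptor Osmr at 0.31 (SE 0.086), the growth hormone receptor Ghr at -0.35 (SE 0.088) and the leptin receptor Lepr at -0.51 (SE 0.16).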

How the data were processed

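Total RNA of 8 mice was labelled by the microarray facility and hybridised to 1 array each. The methods state that robust multichip analysis was run in Partek Genomics Suite by the authors, and the labels name Partek. The deposited table holds intensity values on a linear scale with a shared trimmed mean, the form of scaled single-array signals rather than of that method, and which processing made them stayed unsettled.

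Of 45101 probe sets 64 controls were left out, and 34945 of the other 45037 had 1 gene symbol, 932 several and 9160 none. Immunoglobulin genes were set aside. Signals were taken to log2, the brightest probe set of each of 18172 genes was fitted by age with limma 3.58.1 (R 4.3.3, lmFit and eBayes, two-sided), and p-values were adjusted over all genes. The methods' second factor is not named, so age was the only factor. Samples were grouped by the age in their labels. Members and lists were chosen with earlier results of these data known. Named with values were members at an unadjusted p under 0.05 or without overlap, the 8 brightest ligands and 12 brightest receptors, their partners and ligands, and up to 4 genes per pathway list. Il17b, Il17rb, Il18bp, Il1r2, Il1rn and Il27ra were named after their values were seen. The fit was tested on simulated data of the same size. Alternatives covered left-out mice, moderation, array weights, dim-signal filters and floors of 32 and 64, normalisation, a block of mouse numbers 1 to 4 against 5 to 8 and the choice of probe set.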

Additional observations from a re-analysis of the deposited data

Results flagged for a closer look

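In groups of 4 mice, the distance of the highest or lowest mouse from its nearest neighbour was set against the group's whole range (Dixon's test, 95% level). Distances were taken on the log2 scale. Of 78 groups examined, 4 had a mouse that stood apart, and chance alone marks about 1 in 20 groups. Il1b in old mouse 1 had a signal of 225 with the next old mouse at 325, a ratio of 0.901, and it remained above every young mouse. Il4 in young mouse 3 had a signal of 41.2 with the next young mouse at 53.6, also a ratio of 0.901, which widened its gap to the old mice. Il17d in old mouse 6 had a signal of 239 with the next old mouse at 324, a ratio of 0.865, and it lay below all 4 young mice. Il27ra in old mouse 6 had a signal of 80.5 with the next old mouse at 30.8, a ratio of 0.867, and it lay within the range of the young mice.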

How the results depend on the processing

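No paired analysis was possible because the ages share no mouse numbers. Ligands higher at an adjusted p under 0.05 (main count 0) numbered 2 with a trended and robust prior, 2 among genes brighter than the median probe set, 1 at a signal floor of 32, 1 at a floor of 64 and 2 by the methods' fold and p thresholds. Receptors (main count 1) numbered 2 with the trended prior, 2 among the brighter genes and 3 at a floor of 64, and 0 without moderation, with quantile normalization, with the mean of all probe sets or adjusted over all probe sets, and 0 to 1 when single mice were left out. Members higher without overlap fell from 5 to 3 ligands and from 4 to 2 receptors among the brighter genes, where fewer genes were tested, were 2 receptors with the mean of all probe sets, and were 4 to 7 receptors with a mouse left out, 7 without young mouse 3 or 7. Members lower without overlap (main count 0) were 0 to 1 ligands, 0 to 2 receptors and 0 to 1 of the other 6 genes with a mouse left out. Il7r stayed positive in all 20 alternatives and passed in 9. The alternatives were run for the 39 members named with values and not for the other 33 singly. Among the 39, signs turned for 8: Il4ra was -0.20 with the mean of its probe sets, Il17re -0.034 without cross-hybridising (_x_at and _s_at) probe sets, Il1a 0.0073 at a floor of 64, and Il6ra 0.0029 with array weights and 0.052 with the mean of its probe sets. With single mice left out Il17b ranged from -0.11 to 0.95, Il1rn from -0.12 to 0.56, Il18bp from -0.21 to 0.072, Il17rd from -0.065 to 0.031, Il1a from -0.29 to 0.048 and Il6ra from -0.083 to 0.079. Apart from the floors and the restriction to brighter probe sets, which change the genes tested, the cause of each shift was not tested. Most members were dim, which limits what 4 mice per age can show. At a floor of 32 or 64, Il13, Il9 and Il6 were at the floor in every mouse and gave no value, as did Il23a and Il17b at 64.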
